A study of Mus musculus with 8 samples.

Results

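Heat shock proteins and molecular chaperones were compared between the tips of secondary alveolar septa and whole lung of neonatal mice. The members were chosen by gene symbol, not by measured value: the HSP70, HSP110, HSP90 and small heat shock protein genes, the mitochondrial chaperonin, the J-domain co-chaperones, the TRiC/CCT chaperonin, the FK506-binding prolyl isomerases, calreticulin and calnexin. The rule took 92 probe sets of 67 genes, out of 10855 probe sets on the array that carried 1 symbol, for 8252 genes. A probe set is the group of short array probes that stands for a transcript. Of the 67 genes, 48 had 1 probe set and 19 had several. Hsp90ab1 had no probe set named for it alone and was not analysed here.

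The lungs came from C57/Bl6 mice at day 6 after birth, when secondary septa grow out to subdivide the air spaces, and no treatment or altered gene is given for either group. The tip group held septal tips cut by laser capture from frozen sections, 10000 tips from many pups, and the control group held RNA of pooled whole lung, which contains tips as well. Tips and lung were prepared in parallel in experiment 1 and again, with other litters, in experiment 2, and every one of the 4 RNA samples went onto 2 Affymetrix arrays, run on separate occasions, for 8 arrays in all. All tests therefore rest on 2 RNA samples per group, and the arrays of an RNA are technical repeats. Titles and source names gave the groups, since the description field calls tip samples whole lung as well. The labels state RNA amplification for the tip arrays and for array 1 of lung experiment 1 alone among lung arrays, while the design text has both tissues amplified side by side. In such mixed tissue, fewer cells of a type and less RNA per cell cannot be told apart.

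Chaperones bind unfolded proteins and help them reach or keep their folded shape. HSP70 proteins take up and release their clients in cycles that J-domain proteins start and nucleotide exchange factors such as HSP110 complete, HSP90 acts later on many kinases and receptors, and the chaperonins enclose a client in a chamber. Under stress, heat shock factor binds heat shock elements in the promoters of cytosolic and mitochondrial chaperones, and unfolded protein in the endoplasmic reticulum raises the chaperones of that compartment through its own element. In the lung, endoplasmic reticulum chaperones are known to handle secreted proteins such as the surfactant proteins.

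The promoters that the results below return to are shown here. RefSeq promoters (GRCm38.p6, 250 bases before to 50 after a start) matched 59 of the 67 genes. Cct4, Dnajc2, Dnajc5, Dnajc11, Hsp90aa1, Hspa8, Hspa9 and Hspb2 were not matched, so no element was sought in them. The heat shock element was sought as GAANNTTC or TTCNNGAA, each its own reverse complement, where overlapping matches share letters. It was found in 16 of the 59 genes (27.1%) and in 17.0% of all 27025 genes with a promoter of this length. Its longer form of 3 alternating units was found in 4 of them (Dnajb6, Hspd1, Hspe1 and Hsph1; 6.78%, against 0.662% of all). The endoplasmic reticulum stress element, CCAAT and CCACG 9 bases apart on either strand, was found in 5 (Calr, Canx, Dnajc3, Hsp90b1 and Hspa5; 8.47%, against 0.137% of all). Each stretch below runs 5′ to 3′ on the gene's strand, and capitals mark the element. Hspd1 (chr1:55088029-55088106, minus strand) and Hspe1 (chr1:55088029-55088106, plus strand) lie head to head and share a stretch, while Hspa1a (chr17:34972223-34972290, minus strand) and Hspa1b (chr17:34959305-34959372, minus strand) carry the same letters at different places. Dnajb6 (chr5:29735822-29735894, plus strand) and Dnaja1 (chr4:40722314-40722381, plus strand) are shown for their large differences. Hspa5 (chr2:34771995-34772073, plus strand), Hsp90b1 (chr10:86705503-86705686, minus strand) and Canx (chr11:50325770-50325848, minus strand) are shown because they share the stress element. Hspa5 alone of them passed the threshold used below, and the differences of these genes were not tested against each other.
Hspd1: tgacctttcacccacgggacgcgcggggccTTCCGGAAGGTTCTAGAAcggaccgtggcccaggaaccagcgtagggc
Hspe1: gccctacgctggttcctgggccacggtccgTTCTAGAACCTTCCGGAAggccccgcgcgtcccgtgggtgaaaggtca
Hspa1a: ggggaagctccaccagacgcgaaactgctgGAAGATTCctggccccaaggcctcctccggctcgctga
Hspa1b: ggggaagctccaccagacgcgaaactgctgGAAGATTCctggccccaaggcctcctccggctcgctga
Dnajb6: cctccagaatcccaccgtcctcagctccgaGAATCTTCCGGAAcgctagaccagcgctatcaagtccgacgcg
Dnaja1: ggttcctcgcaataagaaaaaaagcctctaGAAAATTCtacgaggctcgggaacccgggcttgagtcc
Hspa5: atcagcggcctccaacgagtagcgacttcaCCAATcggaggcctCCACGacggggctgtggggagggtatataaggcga
Hsp90b1: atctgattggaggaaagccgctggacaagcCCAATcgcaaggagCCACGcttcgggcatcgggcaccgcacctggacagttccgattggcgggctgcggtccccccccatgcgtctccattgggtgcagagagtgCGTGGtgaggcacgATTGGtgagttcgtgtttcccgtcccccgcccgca
Canx: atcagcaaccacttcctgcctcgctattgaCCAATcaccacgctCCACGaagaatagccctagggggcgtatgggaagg

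Signals are the deposited array intensities, and a difference is the log2 value in tips minus that in lung. Every array had been brought to the same trimmed mean of about 1501, so a difference is relative to the rest of the transcripts on the array and not an amount per cell. Background was set on each array at the 95th percentile of the signals of 19 controls for foreign transcripts, and lay at 314 to 568 on the lung arrays and at 487 to 1244 on the tip arrays. The tip arrays of experiment 1 repeated less closely than the others: over the chaperone probe sets tested, the difference between the arrays of an RNA had an SD of 0.90 log2 units there, against 0.57 for the other tip RNA and 0.39 and 0.41 for the lung RNAs. The 3′ to middle signal ratio, a measure of how complete the labelled RNA was, was 16.5 to 24.8 in lung and 9.23 to 12.4 in tips for actin, and 0.794 to 1.07 in lung and 1.70 to 2.72 in tips for Gapdh. The 3′ to 5′ ratio overlapped between the groups. For actin it was 38.8 to 104 in lung and 23.0 to 139 in tips, and for Gapdh 1.95 to 5.49 in lung and 4.18 to 12.8 in tips. Within lung, the actin ratio was 104 and 75.3 in experiment 1 and 42.2 and 38.8 in experiment 2. The part of background, array repeat and RNA quality in the differences was not tested.

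Cell type markers also differed between the groups. Summed signals add the brightest probe set of every listed gene on the array. They include genes too dim to be tested, which were Pdpn (alveolar type I), Adgre1 (macrophage), Cd3e (lymphocyte) and Msln (mesothelium). In tips, 3 of 6 tested markers of myofibroblasts and smooth muscle were higher (Des, Myh11 and Tagln), with a summed signal of 56045 to 113556 on the lung arrays and 68218 to 187317 on the tip arrays. Pdgfra, of the same list, lay lower at its brightest probe set on every tip array and did not pass (-0.83 ± 0.33, adjusted p = 0.0861). Endothelium had 3 of 5 higher (26638 to 29545 in lung, 49183 to 76040 in tips), alveolar type II cells 1 of 2 (21879 to 37208 against 97827 to 113686) and airway cells 2 of 2 (13272 to 22765 against 30231 to 82091). Of 2 alveolar type I markers (39727 to 49997 in lung, 18198 to 28179 in tips) Hopx was lower, while Ager was higher on every tip array and did not pass (0.89 ± 0.35, adjusted p = 0.0845), and without Hopx the sums were 4974 to 7078 and 7099 to 15757. Of 4 macrophage markers (41811 to 61219 against 22825 to 32899) Ctss was lower, and Lyz2 (0.60), Csf1r (0.61) and Cd68 (0.72) had positive differences that did not pass. Without Ctss the macrophage sums were 13258 to 17871 in lung and 19406 to 27715 in tips. Ptprc was lower among 2 lymphocyte markers (2319 to 3254 against 606 to 2240). Of 2 erythroid markers (5739 to 28906 against 13101 to 74763) and 1 mesothelial marker (1564 to 2199 against 1149 to 3211), 0 passed in limma, with 0 and 1 at an unadjusted p under 0.05. No marker was at 0, while Cd3e lay under background on all 8 arrays. The part of the cell mixture in the chaperone differences was not tested.

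Signals were high enough on average for a test at 68 of the 92 chaperone probe sets, of 55 genes. Passing meant an adjusted p under 0.05 in limma over all 7453 probe sets tested. In tips, 5 chaperone probe sets rose and 15 fell by limma, which is 7.35% and 22.1% of those tested. Over all probe sets tested, 14.5% passed as higher and 13.7% as lower. These shares stand beside every count by class or compartment below, and no class was tested against them. In either direction 20 chaperone probe sets (29.4%) and 28.3% of all passed, so the total was close to the background and the split between directions was less so, a difference that was not tested. The median difference was -0.13 for the chaperones and 0.35 for all probe sets tested. On the single arrays, 12 chaperone probe sets (17.6%) had every tip array above every lung array, against 24.1% of all, and 20 (29.4%) had every tip array below, against 18.0% of all. All 20 that passed were among these non-overlapping probe sets, so their 4 pairs of tip and lung arrays agree in direction by construction.

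**Figure D1:**
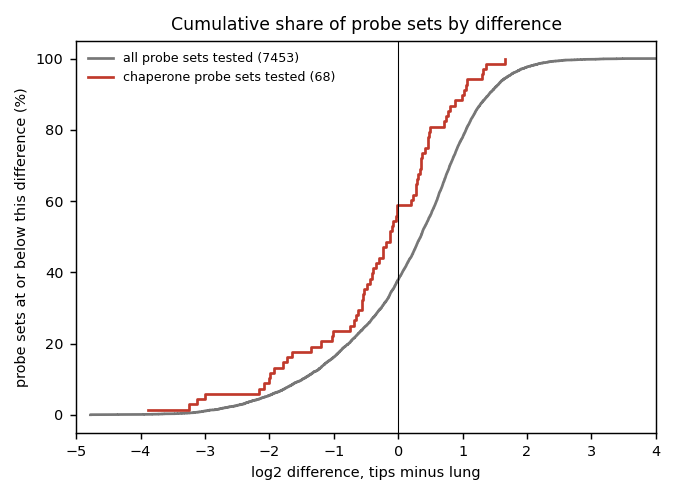
Cumulative share of probe sets (percent, vertical axis) by log2 difference, tips minus lung (horizontal axis), for the 68 chaperone probe sets (red steps) and all 7453 tested (grey line). The red line lies to the left of the grey line over most of the range, with medians of -0.13 and 0.35.

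The split over all probe sets turned with the way arrays were brought to a common level, while more chaperones were lower than higher under each scaling. The median of all probe sets tested was 0.35 as reported, 0.03 after quantile normalization, 0.06 after cyclic loess and -0.19 after centring each array on its median. The split of all calls into higher and lower was 1084 and 1022 as reported, 623 and 1012 with quantile normalization, 814 and 1138 with loess and 271 and 1512 with median centring. Among the chaperones the same 3 scalings gave 1 higher and 14 lower, 1 and 13, and 0 and 20, and with median centring 1 was higher at an unadjusted p under 0.05 in limma. The chaperone median stayed under that of all probe sets in each, at -0.19, -0.17 and -0.67. None of the 20 changed sign under any scaling, and 13 of the 15 lower probe sets passed under every one. Of the higher ones, Fkbp1a passed under quantile normalization and loess.

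Of the lower probe sets, 5 passed under all 27 alternative settings: Dnajb6, Hspa5, Cct4, Dnaja1 and Hspd1. Leaving out a lung RNA ended more calls than any other alternative, over all probe sets tested as well as among the chaperones. With 1 lung RNA left, the spread comes from the tip RNAs alone. The chaperone median was -0.23 without the lung RNA of experiment 1 and -0.09 without that of experiment 2. For all probe sets tested the median was 0.32 and 0.34. Without a tip RNA the spread comes from the lung RNAs alone, so calls kept in those fits do not judge the tip RNAs. The chaperone median was -0.13 without the tip RNA of experiment 1 and -0.20 without that of experiment 2. For all probe sets tested the median was 0.36 and 0.30.

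**Figure D2:**
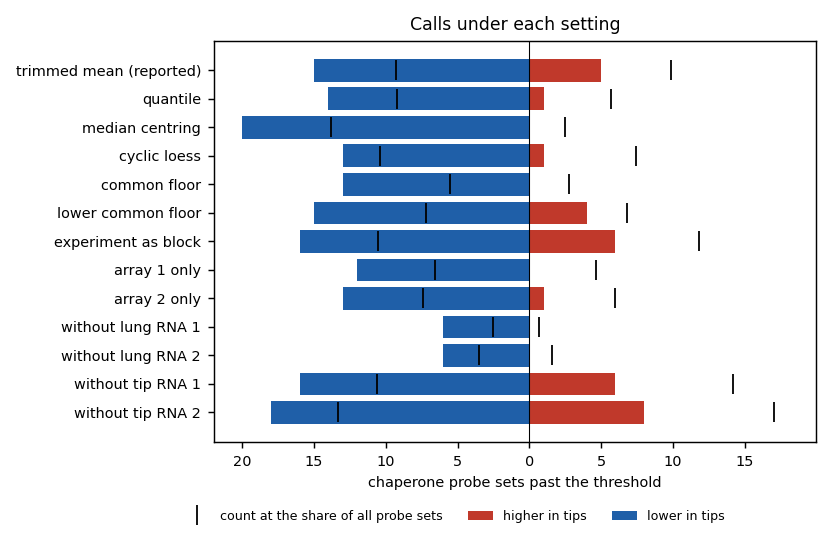
Number of chaperone probe sets past the threshold (horizontal axis), lower in tips to the left in blue and higher to the right in red, under the reported setting and 12 alternatives (vertical axis). Black ticks mark the count that the share of all probe sets called in that setting would give, and the blue bar reaches beyond its tick in every setting while the red bar stays short of it.

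HSP70 proteins, the central chaperones that bind exposed stretches of unfolded protein, fell at 3 of 5 tested genes, with a median of -1.72. Hspa5 encodes BiP, the HSP70 of the endoplasmic reticulum. Its signal was 8529, 7533, 7734 and 6517 on the lung arrays and 827, 250.2, 1040.1 and 776 on the tip arrays, each list giving arrays 1 and 2 of experiment 1 and then those of experiment 2. All lung arrays were several-fold above all tip arrays, and 2 tip arrays were under background. The means were 7578 ± 640.4 in lung and 723 ± 261 in tips (SD, n = 2 RNA samples), a difference of -3.25 ± 0.35 (SE, adjusted p = 0.00110), with -3.71 within experiment 1 and -2.79 within experiment 2. Hspa9, the mitochondrial HSP70 that pulls in imported proteins, had 26037 ± 5347 in lung and 7729 ± 1389 in tips (difference -1.72 ± 0.32, adjusted p = 0.00610). Its call ended without the lung RNA of experiment 2 (adjusted p = 0.0560).

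The constitutive HSP70 of the cytosol, Hspa8, did not pass. Its signal was 3377, 3709, 5128 and 4089.6 on the lung arrays and 5010.0, 3721, 6414 and 3897 on the tip arrays, so the groups overlapped. The difference was 0.20 ± 0.30 (adjusted p = 0.632). The stress-inducible pair Hspa1a and Hspa1b gave different results although the genes are near-identical copies, so which copy each probe set reads is uncertain. Hspa1b had 1898, 1757, 1922 and 1945 in lung and 535, 198, 345 and 527 in tips. All 4 tip values lay under background, so lung was at least 2.40-fold brighter (fitted difference -1.93 ± 0.38, adjusted p = 0.00793), a limit taken against the background of each tip array or the signal where higher. Its call ended without either lung RNA (adjusted p = 0.138 and 0.137) and where all arrays were floored at the highest background (0.0561). Hspa1a, with the same letters in the promoter stretch shown above, had 1603 ± 143 in lung and 1581 ± 177 in tips (difference -0.02 ± 0.33, adjusted p = 0.965). Hspa2, Hspa14 and Hspa1l were too dim to be tested.

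HSP110 proteins are relatives of HSP70 that help it to exchange nucleotide. Hspa4 was read by 5 probe sets, of which 4 were tested and 1 fell, with 3492 ± 453 in lung and 1316 ± 349 in tips (difference -1.35 ± 0.34, adjusted p = 0.020). The call ended without either lung RNA (adjusted p = 0.138 and 0.194) and on array 1 alone (0.0616). The brightest Hspa4 probe set had 6022, 7569, 14755 and 17413 in lung and 2228, 4039.6, 7443 and 9570.2 in tips. Both tissues were higher in experiment 2 than in experiment 1, so the groups overlapped while the differences within the experiments were -1.13 and -0.91. It passed with the experiment as a paired block (difference -1.02, adjusted p = 0.0186) and not in the reported fit (0.166). Without the tip RNA of experiment 2 the difference was -1.74, in a fit whose spread comes from the lung RNAs alone. Hsph1 (difference -0.65 ± 0.32, adjusted p = 0.146) and Hspa4l (0.48 ± 0.39, adjusted p = 0.364) did not pass. Hsph1 passed under median centring (-1.19, adjusted p = 0.0317) and under no other scaling.

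HSP90 proteins hold kinases, steroid receptors and other clients near their active shape. The cytosolic, stress-responsive Hsp90aa1 had signals of 15919.6, 14208, 10639 and 10577 in lung and 3706, 1041, 3812 and 3551 in tips. All tip arrays were below all lung arrays, with array 2 of tip experiment 1 well below the other tip arrays and under background. The means were 12836 ± 3151 and 3027 ± 925, and the difference was -2.16 ± 0.36 (adjusted p = 0.00423), with -2.83 within experiment 1 and -1.49 within experiment 2. Without the lung RNA of experiment 1 the adjusted p was 0.0566. A further Hsp90aa1 probe set lay under background on all 8 arrays. Hsp90b1, the HSP90 of the endoplasmic reticulum also known as GRP94, had 8349.9, 7682, 6918 and 7008 in lung and 4750.1, 5329, 4714 and 3615 in tips. Its arrays did not overlap either, but the difference of -0.69 ± 0.29 did not pass (adjusted p = 0.101). It passed under 2 of the 27 alternatives, median centring (-1.23, adjusted p = 0.0209) and a fit of all arrays with the RNA as a random block (0.0183).

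**Figure D3:**
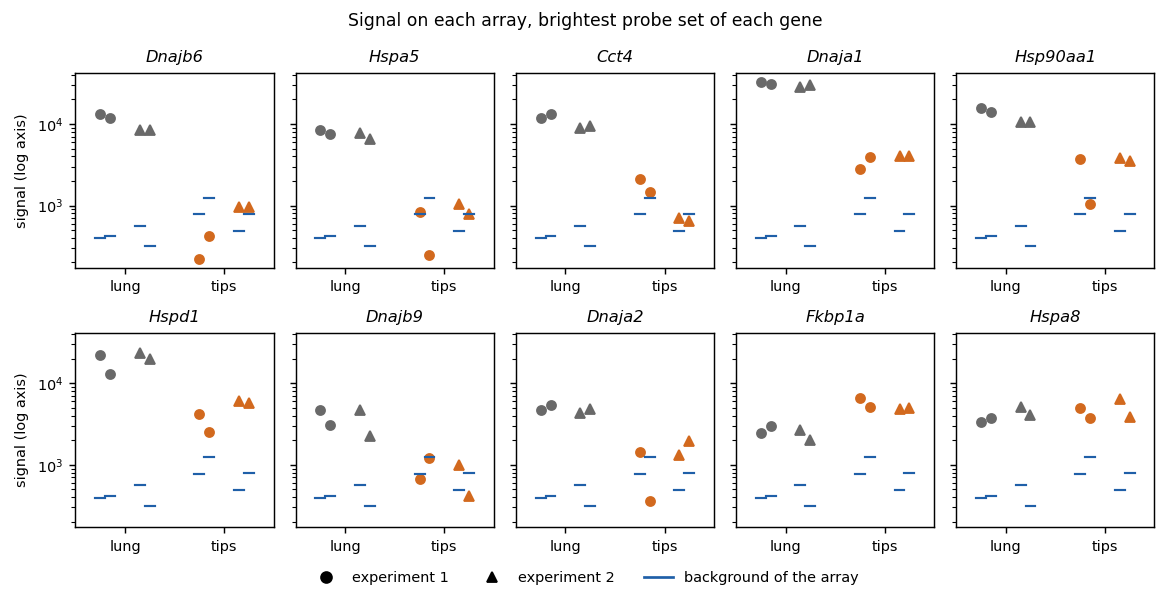
Signal on each array (log axis) for the brightest probe set of 10 chaperone genes, lung in grey and tips in orange, circles for experiment 1 and triangles for experiment 2, with array 1 left of array 2. Blue dashes mark the background of each array. Lung and tip arrays are apart for all genes shown but Hspa8, and the Dnajb6, Hspa5 and Dnajb9 tip signals lie near or under background. Cct4, Dnaja2 and Hsp90aa1 each have 1 tip array under background.

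The mitochondrial chaperonin is a barrel of Hspd1 (HSP60) closed by a lid of Hspe1 (HSP10). At its brighter probe set Hspd1 had signals of 22126, 13166, 23369.5 and 19716 in lung and 4233, 2524, 5993 and 5728 in tips. The lowest lung array was above the highest tip array. The means were 19594 ± 2756 and 4619 ± 1755, and the difference was -2.09 ± 0.35 (adjusted p = 0.00421). The other Hspd1 probe set, whose name marks probes that can cross-react, had 1037 ± 20.9 in lung and 1224 ± 418 in tips and did not pass (-0.03 ± 0.40, adjusted p = 0.956). Hspe1 shares its promoter stretch and all its heat shock elements with Hspd1, and had 1318, 2258, 2063 and 2305 in lung and 2783, 2218, 3491 and 2205 in tips. Its groups overlapped and the difference of 0.41 ± 0.32 did not pass (adjusted p = 0.342). Among the other members listed here as mitochondrial, Hspa9 fell as given above, and Dnaja3 (-0.02 ± 0.30, adjusted p = 0.962) and Dnajc15 (0.88 ± 0.47, adjusted p = 0.178) did not pass.

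TRiC, also called CCT, is the ring-shaped chaperonin of the cytosol that folds actin and tubulin, and is built from a set of different subunits present in equal number. On the arrays the values of its subunits ran both ways. Cct4 had signals of 11782, 13272, 8962 and 9354 in lung and 2095, 1454, 695 and 648 in tips. All tip arrays were far below all lung arrays, and those of experiment 2 were the lower ones, with its array 2 under background. The means were 10843 ± 2382 and 1223 ± 780.1, and the difference was -3.12 ± 0.42 (adjusted p = 0.00182). Cct6a also fell (-1.01 ± 0.29, adjusted p = 0.0336), from 6656 ± 1092 to 3207 ± 137, at a probe set whose name marks shared probes. Cct6a passed under 17 of the 27 alternatives. It did not pass after quantile normalization (adjusted p = 0.0759), after loess (0.0920), at the floor of the highest background (0.0554), on array 1 alone (0.0520), on array 2 alone (0.0649), without the intensity trend (0.0651), without a lung RNA (0.251 and 0.116), or without array 1 of lung experiment 2 (0.0524) or array 2 of tip experiment 2 (0.0547).

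Cct6b, a form of the same subunit known mainly from testis, rose. Its signal was 642, 573, 249 and 749 in lung and 1933, 1663, 1568 and 1010.2 in tips. The lowest tip array was above the highest lung array, and 1 lung array was under background. The difference was 1.30 ± 0.40 (adjusted p = 0.0404), from 553 ± 76.7 to 1544 ± 359.9. That call passed under 12 of the 27 alternatives. It ended under quantile normalization (adjusted p = 0.175), median centring (0.203) and loess (0.167), without the filter (0.0687), at the floors (0.171 and 0.0563) and on array 1 (0.0597) or array 2 alone (0.258). It also ended without the tip RNA of experiment 1 (0.0513), a lung RNA (0.203 and 0.279), array 1 of lung experiment 2 (0.0935), either array of tip experiment 1 (0.0702 and 0.0652) or array 1 of tip experiment 2 (0.0837). The remaining subunits did not pass: Tcp1 (-0.75 ± 0.46), Cct8 (-0.56 ± 0.56) and Cct2 (-0.53 ± 0.32) had negative differences, and Cct5 (0.28 ± 0.32 and 0.78 ± 0.36), Cct3 (0.36 ± 0.31 and 1.02 ± 0.37) and Cct7 (0.80 ± 0.32) positive ones. Over the 11 TRiC probe sets tested the median was 0.28, and the range ran from -3.12 to 1.30.

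J-domain proteins bring clients to HSP70 and trigger its hydrolysis of ATP. Of 27 tested J-domain probe sets 7 fell and 2 rose, with a median of -0.13, beside 13.7% lower and 14.5% higher over all probe sets tested. Class A members are general partners of cytosolic HSP70. Dnaja1 had signals of 32729, 30630.1, 28848 and 30215 in lung and 2819, 3980.3, 4037 and 4033 in tips. All 4 lung arrays were close to each other and far above the tip arrays. The means were 30606 ± 1519 and 3717 ± 449, and the difference was -3.00 ± 0.29 with the smallest adjusted p of all members (0.000941). Dnaja2 had 4647, 5502, 4376 and 4869.7 in lung and 1424, 365, 1305 and 1941 in tips, where the 365 was under background. Here too all tip arrays lay lower, array 2 of tip experiment 1 lowest, and the difference was -1.99 ± 0.38 (adjusted p = 0.00677, but 0.0915 and 0.0631 without the lung RNA of experiment 1 and of experiment 2). Dnaja3, the class A member of mitochondria, is given above.

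Class B members fell at 2 of 8 tested probe sets, and 1 rose. Dnajb6, which keeps aggregation-prone proteins such as polyglutamine stretches soluble, passed in both directions. Its brighter probe set had 13413, 11944, 8564 and 8393 in lung and 223, 420.0, 946 and 952 in tips, and both tip arrays of experiment 1 were under background. The means were 10578 ± 2969.8 and 635 ± 444, and the fitted difference was -3.88 ± 0.44 (adjusted p = 0.00111), with -2.97 within experiment 2. Because the tip values of experiment 1 are not above background, its size is not settled: with all arrays floored at the highest background it was -3.06, the same as for Dnaja1 (-3.06). Its dimmer probe set had 512, 670.3, 448 and 686 in lung and 1799.5, 2029, 1183 and 1928 in tips. Here every tip array was above every lung array, and the difference was 1.36 ± 0.37 (adjusted p = 0.0272), from 579 ± 17.1 to 1735 ± 254. The higher call passed under 17 of the 27 alternatives. It ended under quantile normalization (adjusted p = 0.121), median centring (0.144) and loess (0.108), at the floor of the highest background (0.0981), on array 1 (0.0947) or array 2 alone (0.0596), and without a lung RNA (0.201 and 0.197) or array 2 of either tip RNA (0.0558 and 0.0688), while the lower call passed under every alternative. Which Dnajb6 transcripts the probe sets read was not analysed here, so no direction is given for the gene.

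Dnajb9, a partner of BiP in the endoplasmic reticulum, had 4709, 3069, 4708 and 2279 in lung and 669, 1203, 997 and 410.4 in tips. The groups did not overlap although the arrays of an RNA differed, and 3 tip arrays were under background. The difference was -2.00 ± 0.34 (adjusted p = 0.00436), from 3691 ± 279 to 820.0 ± 165. It did not pass on array 2 alone (adjusted p = 0.0531) or without a lung RNA (0.0990 and 0.0591). Dnajb13, an axonemal protein of cilia and sperm tails, had a difference of 1.06 ± 0.36 (adjusted p = 0.0527). It passed under 5 of the 27 alternatives, among them the experiment as a paired block (0.0385). Another left out the tip RNA of experiment 1, with a difference of 1.41 and a spread taken from the lung RNAs alone. Dnajb1 (-0.13 ± 0.47), a heat-inducible partner of cytosolic HSP70, and Dnajb11 (-0.19 ± 0.30), a partner of BiP, did not pass, nor did Dnajb3 (0.34 ± 0.56) and Dnajb8 (0.47 ± 0.51).

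Class C members share little beyond the J domain. Of 16 tested probe sets 3 fell and 1 rose. Dnajc13, which acts on endosomes with the HSP70 of the cytosol, fell from 3803 ± 151 to 1059.7 ± 317 (-1.79 ± 0.35, adjusted p = 0.00750). Dnajc9, known as a histone co-chaperone, fell from 4443 ± 74.5 to 1358 ± 171 (-1.64 ± 0.30, adjusted p = 0.00608). Dnajc10, a disulphide reductase of the endoplasmic reticulum that works with BiP, fell from 7748 ± 1319.8 to 3273 ± 83.6 (-1.20 ± 0.29, adjusted p = 0.0182). All 3 calls ended without a lung RNA, with adjusted p between 0.0743 and 0.170, and that of Dnajc10 also after loess (0.0527) and on array 1 alone (0.0601). Dnajc4 rose: its signal was 277, 572, 574 and 249 in lung and 2616, 2178, 890.2 and 1152 in tips. The tip arrays of experiment 1 were the highest, and 2 lung arrays were under background. The difference was 1.65 ± 0.47 (adjusted p = 0.0306), with 2.19 within experiment 1 and 1.12 within experiment 2. It was fitted under 26 of the 27 alternatives and passed under 10. It did not pass without the tip RNA of experiment 1 (adjusted p = 0.0627), without a lung RNA (0.190 and 0.183), at the floors (0.370 and 0.149) or under quantile normalization (0.101), median centring (0.109) and loess (0.0883). It also missed the threshold without the filter (0.0550), on array 1 (0.113) or array 2 alone (0.0719) and in 5 of the 8 fits that left out a single array (0.0518 to 0.0624). Among the rest, the 3 tested probe sets of Dnajc3, the BiP partner that also inhibits the kinase Eif2ak3, had differences from -0.35 to 0.37.

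**Figure D4:**
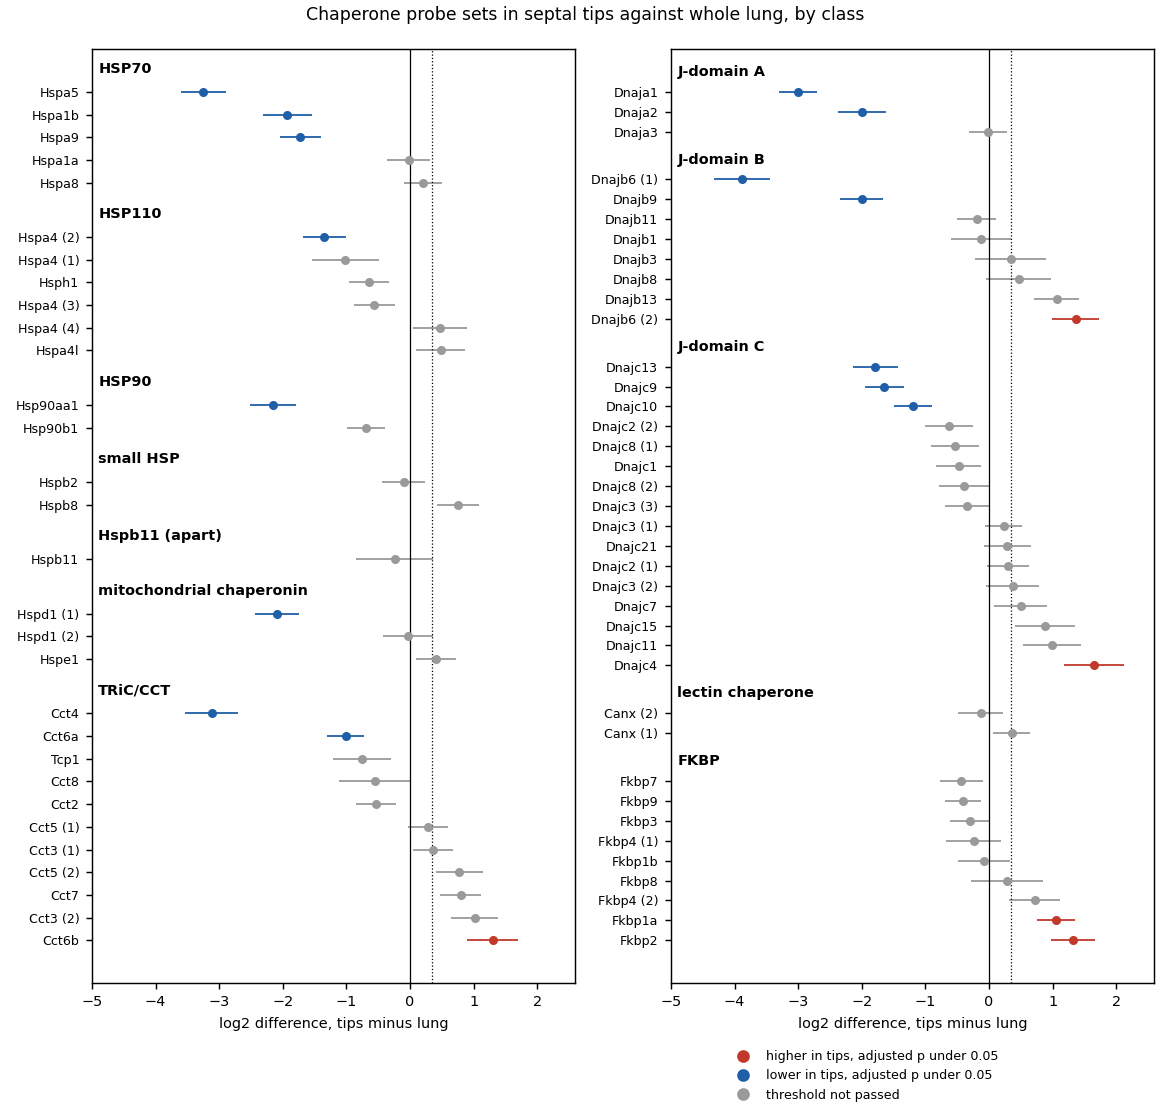
Log2 difference, tips minus lung (horizontal axis), with its standard error for the 68 chaperone probe sets tested, ordered within each class (vertical axis). Numbers in brackets order the probe sets of a gene from bright to dim, blue and red mark those past the threshold as lower and higher, and the dotted line marks the median of all 7453 probe sets, 0.35. HSP70 has 3 blue points of 5 and the J-domain classes 7 of 27, while the FKBP class has 2 red points of 9 and 0 blue ones. Over all probe sets tested, 13.7% were lower and 14.5% higher.

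FK506-binding proteins catalyse the turning of peptide bonds at proline. Of 9 tested probe sets 2 rose and 0 fell in limma, also 0 at an unadjusted p under 0.05. Over all probe sets tested, 14.5% rose and 13.7% fell, and whether this small class departs from that was not tested. Fkbp1a (FKBP12), the cytosolic target of FK506 and rapamycin that also binds the type I receptor of TGF-beta, had 2460.0, 2987, 2653 and 2034 in lung and 6668, 5074, 4913 and 4975 in tips. All tip arrays were above all lung arrays and none was under background. The means were 2533 ± 269 and 5407 ± 656, and the difference was 1.05 ± 0.30 (adjusted p = 0.0300), with 1.06 and 1.04 within the experiments. It passed under 20 of the 27 alternatives. Under median centring it did not pass (adjusted p = 0.285), nor at the floor of the highest background (0.0517), without the intensity trend (0.0579), on array 1 alone (0.0512), on array 2 alone (0.0676) or without a lung RNA (0.138 and 0.193). Fkbp2, the small FKBP of the endoplasmic reticulum, had 772, 711, 492 and 1089 in lung and 1276, 2705, 2279.9 and 2337 in tips. Its lowest tip array was above its highest lung array, and 1 lung array was under background. The difference was 1.32 ± 0.35 (adjusted p = 0.0244), which passed under 17 of the 27 alternatives. It ended under quantile normalization (0.107), median centring (0.161) and loess (0.0809), at the floor of the highest background (0.0665), on array 1 (0.113) or array 2 alone (0.0515), and without a lung RNA (0.188 and 0.171), array 1 of lung experiment 2 (0.0615) or array 2 of tip experiment 1 (0.111). The other FKBPs did not pass, from Fkbp7 at -0.43 ± 0.34 to the dimmer Fkbp4 probe set at 0.72 ± 0.40.

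Calnexin and calreticulin, the lectin chaperones that hold newly made glycoproteins in the endoplasmic reticulum, gave no call in limma at 2 tested Canx probe sets, and 0 at an unadjusted p under 0.05. Canx had 3733, 2836, 3487 and 2515 in lung and 3727, 4321, 4034 and 4020.1 in tips at its brighter probe set, where lung and tips overlapped (difference 0.36 ± 0.29, adjusted p = 0.364). The dimmer probe set had 1505 ± 54.6 and 1365 ± 293 (-0.13 ± 0.35, adjusted p = 0.793). The Calr probe set had 168, 223, 28.8 and 245 in lung and 107, 51.0, 56.6 and 102 in tips. All 8 values were under background, so it gives no comparison. Small heat shock proteins, which hold unfolded proteins without ATP, also gave no call, with 1 of 2 higher at an unadjusted p under 0.05: Hspb8 (0.75 ± 0.33, adjusted p = 0.113) and Hspb2 (-0.10 ± 0.34, adjusted p = 0.844) were tested. The Hspb1 probe set had 21.7, 45.2, 17.6 and 53.5 in lung and 99.1, 266, 476 and 445 in tips. Every one of them was under background, and Hspb1 was not tested. Hspb11, a subunit of intraflagellar transport named with this family, had a difference of -0.24 ± 0.61 (adjusted p = 0.784).

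By compartment, 3 of 14 tested probe sets of the endoplasmic reticulum fell (Hspa5, Dnajb9 and Dnajc10) and 1 rose (Fkbp2), with a median of -0.38. Mitochondria, taken as Hspa9, Hspd1, Hspe1, Dnaja3 and Dnajc15, had 2 of 6 lower. The remaining 48, which hold every member on neither list wherever its protein lies, had 10 lower and 4 higher, with a median of -0.09. Over all probe sets tested, 13.7% were lower and 14.5% higher. Of the 4 tested genes with the endoplasmic reticulum stress element, Hspa5 passed, and Hsp90b1, Dnajc3 and Canx did not. Of 14 tested genes with a heat shock element, 6 had a probe set that fell and 1, Dnajb6, also a probe set that rose. Of 34 tested genes matched to a promoter without it, 6 had a probe set that fell and 4 had one that rose. Genes without a matched promoter are in neither group, among them Cct4, Hsp90aa1 and Hspa9, which fell, and Hspa8, which did not pass. The median over brightest probe sets was -0.59 with the element and -0.05 without it, given as a description.

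Probe sets of the same gene differed in many cases. Of 10 genes with several tested probe sets, 4 had differences of the same sign throughout and 6 did not, and the median gap between the highest and the lowest was 0.82. The gap was 5.24 in Dnajb6, 2.05 in Hspd1 and 1.82 in Hspa4. When each gene was represented by its brightest tested probe set, 14 of 55 genes fell and 4 rose, against 851 and 826 of all 5642 genes. With the mean of a gene's tested probe sets 14 of 55 fell and 5 rose, against 825 and 883 of all 5642.

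**Figure D5:**
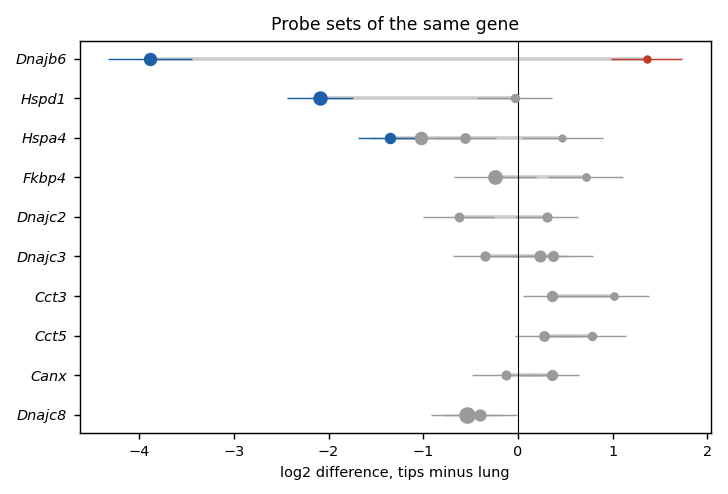
Log2 difference, tips minus lung (horizontal axis), with its standard error for each tested probe set of the 10 genes that had several (vertical axis); larger points are brighter in lung. Dnajb6 has a blue point at -3.88 and a red point at 1.36, and the brighter Hspd1 point lies at -2.09 beside one at -0.03.

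The calls differed in signal as well. The 15 lower probe sets had lung means from 1881 to 30606, with 0 of them under background on any lung array, and 9 were under background on at least 1 tip array. The 5 higher ones had lung means from 418 to 2533, and 4 of them were under background on at least 1 lung array. Among all probe sets tested, the share called lower was 3.17%, 7.46%, 12.8% and 31.4% across 4 bins of equal size, from the dimmest to the brightest by mean log2 signal. The chaperones had 0 of 10, 1 of 12, 7 of 21 and 7 of 25 lower in these bins, so 25 of the 68 were in the brightest one, where lower calls were most common among all probe sets. In the bin below it the chaperone share was 33.3% against 12.8%, and in the brightest it was 28% against 31.4%. The part of signal level in the split of the chaperone calls was not tested.

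Of the 24 probe sets not tested, 10 were under background on all 8 arrays, and 12 genes had no tested probe set. These genes were Calr, Hspb1, Hspa2, Hspa14, Hspa1l, Fkbp5, Fkbp11, Dnajb2, Dnajb4, Dnajb5, Dnajc5 and Dnajc17. The other 14 untested probe sets were above background on at least 1 array, and 6 of the 24 had every tip array above every lung array, with no test. The share of all untested probe sets with that pattern was not counted. Background also ran higher on the tip arrays, and no result about chaperones is drawn from this count.

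Other genes of protein folding, from lists that hold no member, moved both ways, as tested under the reported scaling alone. Of 16 tested co-chaperones and cofactors, 4 rose and 3 fell at their brightest tested probe set. Over all 5642 genes, 826 rose and 851 fell at that probe set, which stands beside the count of each list here and below. Cdc37, which delivers kinases to HSP90, rose (1.58 ± 0.40, adjusted p = 0.0204), as did the prefoldin subunits Pfdn5 (1.25 ± 0.37) and Pfdn6 (1.55 ± 0.37), which hand actin and tubulin to TRiC, and the mitochondrial protease subunit Clpp (1.60 ± 0.45). Vbp1, another prefoldin subunit, fell (-1.67 ± 0.36, adjusted p = 0.0102). Ppid, a prolyl isomerase that binds HSP90 (-2.45 ± 0.49), and Bag3, a nucleotide exchange factor of HSP70 (-2.76 ± 0.73), fell too. Chordc1, an HSP90 partner, fell at its dimmer probe set (-2.43 ± 0.40) and did not pass at the brighter one (-0.18 ± 0.33). Several of these lay under background on some arrays, which limits the size of their differences. Among them were the dimmer Chordc1 probe set on 3 tip arrays, Bag3 on 2 tip arrays and Clpp on 2 lung arrays.

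In the endoplasmic reticulum, 4 of 17 tested folding and stress genes rose and 2 fell. Ppib, a prolyl isomerase needed for collagen, rose from 839 ± 169 to 4100 ± 1360 (2.07 ± 0.36, adjusted p = 0.00487). Ganab (1.67 ± 0.42) and Uggt1 (1.47 ± 0.35), which trim and check the sugars of glycoproteins, and the transcription factor Atf4 (1.00 ± 0.33) also rose. Pdia6, a disulphide isomerase that works with BiP (-1.41 ± 0.38), and Eif2ak3, the stress sensor kinase PERK (-2.13 ± 0.61), fell. Eif2ak3 was under background on 3 tip arrays and Ganab on 2 lung arrays, which limits the size of their differences. Of 3 heat shock factors and regulators on the array, Hsbp1, a negative regulator of heat shock factor, was bright enough to be tested and did not pass (-1.32 ± 0.44, adjusted p = 0.0502). Among 10 tested immediate early genes, which respond to tissue handling as well as to growth signals, Jund (2.25 ± 0.41) and Ier2 (0.92 ± 0.29) rose and Fos fell (-1.42 ± 0.43). Their summed signal was 18906 to 38127 on the lung arrays and 55528 to 64563 on the tip arrays, and without Jund it was 14122 to 24897 and 18478 to 25324, which overlap. The part of tissue handling in the chaperone differences was not tested.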

How the data were processed

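MAS5 intensities on a linear scale were deposited, 1 per probe set and array, and the submitters' processing notes credit them to MAS5 without a version. The genome build and scaling target are not given in the sources used here. For the comparison, every array was set to 1 trimmed mean (1500.88, leaving out 2% at both ends), raised by an offset of 150.088 (10% of that mean) and put on the log2 scale, on which differences of dim probe sets come out too small. Controls (66) and probe sets below the 40th percentile of mean log2 were dropped, and 7453 remained. Values of technical arrays were averaged per RNA before limma 3.58.1 (R 4.3.3; eBayes with an intensity trend, two-sided, Benjamini-Hochberg) was run on tips against lung, with 2 residual and 7.05 prior degrees of freedom. Precision is limited by the number of RNA samples, and the standard error had a median of 0.40. SDs of signals are over RNA samples. The procedure was tested on simulated data.

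Members and lists were chosen with earlier results of these data known. Signals on every array are given for the 8 largest differences in each direction among calls with 4 of 4 array pairs agreeing, for Hspa5, Hspa8, Hsp90aa1, Hsp90b1, Hspd1, Hspb1, Calr, Canx and any gene with calls in both directions. Hspe1, Hspa1a, Hspa1b and the brightest Hspa4 probe set were given in more detail after their values were seen. Other chaperones are given with their differences. Symbols come from the array annotation, of which 10839 were updated by gene ID through the RefSeq table, and 396 probe sets with several symbols and 1237 without one were tested but not named. Probe set names ending in f_at, r_at, s_at or the like mark probes that other transcripts can share. Promoters came from RefSeq (GRCm38.p6), and protein sequences were not analysed here.

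The design text says that tips and lung of an experiment were processed in parallel, so the experiment number pairs them. Across probe sets, same-numbered tips and lung departed from their group means with a correlation of 0.0452. The replicate block gave 2452 calls against 2106 without it, with 2098 shared. Alternatives changed scaling, offset, filter, floor, variance model, the array used and the samples, 27 in all.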

Additional observations from a re-analysis of the deposited data

Results flagged for a closer look

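In 7 of 136 groups of 4 arrays over the chaperone probe sets tested (5.15%), the highest or lowest array stood apart from the other 3. Chance gives about 1 in 20 for 4 independent values. Arrays that share an RNA are not independent, so that rate does not judge the count. All 7 were tip arrays of experiment 1, 5 of them array 1 and 2 array 2. On array 1, Dnaja1 had a signal of 2818.9 with the other tip arrays between 3980 and 4037, Dnajc13 had 456.6 (1214 to 1309) and Fkbp1b had 708.3 (3643 to 4445), each the lowest. On the same array, Fkbp1a had 6668.5 (4913 to 5074) and the dimmer Cct5 probe set 3123.1 (1537 to 1633), each the highest. On array 2, Hsp90aa1 had 1040.7 (3551 to 3812) and Hspa4l had 802.1 (1460.5 to 1549.5), each the lowest. Without the tip RNA of experiment 1, the differences of Dnaja1, Dnajc13, Hsp90aa1 and Fkbp1a kept their sign. That fit takes its spread from the lung RNAs alone, so its calls do not judge these arrays. The cause was not tested.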

How the results depend on the processing

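None of the 20 called members changed sign under the 27 alternatives. The probe sets called over the whole table were 2106 as reported, 1229 with array 1 of each RNA alone, 851 where all arrays were floored at the highest background (6788 left to test), and 349 to 3324 when an array or an RNA was left out. The 5 higher chaperone probe sets became 1 with quantile normalization, 1 with loess, 0 with median centring, 3 without the filter, 0 at that floor, 9 with all arrays fitted and the RNA as a random block, 0 with array 1 alone, 1 with array 2 alone, and 0 to 8 when an array or RNA was left out. At an unadjusted p under 0.05 in limma, 9 were higher at the floor, 10 on array 1 alone and 1 with median centring. The 15 lower ones stayed within 1.5 times except when an RNA was left out (6 to 18 over all such fits). With 1 RNA left in a group, that RNA is assumed to vary like the other group. Leaving out array 2 of tip experiment 1 left 1 higher call, Fkbp1a, and leaving out array 1 of it, array 2 of tip experiment 2 or array 1 of lung experiment 2 left 3. The median of the chaperones was -0.67 with median centring and 0.0067 without the filter (all probe sets -0.19 and 0.47). The paired fit with the replicate block gave 2452 calls, 6 higher and 16 lower chaperones, with Dnajb13 and the brightest Hspa4 probe set gained and none lost. Except where an alternative has fewer samples or probe sets by its construction, the cause was not tested. Signals near background, on tip arrays for the lower calls and lung arrays for the higher ones, limit the size of the differences.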
